A study of Homo sapiens with 8 samples.

Results

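Autophagy receptors, the ATG8 proteins they bind and the MiT/TFE transcription factors were followed as 10 genes, of 55765 gene symbols in the deposited tables. They were chosen by symbol, with earlier results of these data known. The 10 are SQSTM1, OPTN, NBR1, CALCOCO2 and TAX1BP1 (cargo receptors), MAP1LC3B and GABARAPL1 (ATG8 proteins), and TFEB, TFE3 and MITF (MiT/TFE factors). All 10 were found, and all 10 had a mean of at least 1 TPM (a level scaled for transcript length and for the total of a library), as did 14650 genes in all. The study sequenced RNA from the human myeloid leukaemia lines NB4 and Kasumi-1 after 6, 12 and 24 h with 40 uM chlorprothixene, an antipsychotic drug of the thioxanthene class, and from each line untreated, in 8 libraries. NB4 is an acute promyelocytic leukaemia line with the PML-RARA fusion, whereas the acute myeloid leukaemia line Kasumi-1 has the RUNX1-RUNX1T1 fusion; each line stems from 1 patient. Each condition is 1 library, so no value has a replicate. The labels match no untreated library to a time and name no vehicle, so drug and time in culture cannot be told apart.

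In selective autophagy, cargo receptors bind ubiquitin-tagged proteins, organelles or bacteria at one end and lipid-anchored ATG8 proteins on the forming autophagosome at the other, and are degraded in the lysosome with what they carry. TFEB, TFE3 and MITF are related transcription factors that bind the E-box CACGTG in promoters of lysosome and autophagy genes, and active mTORC1 keeps TFEB and TFE3 in the cytosol by phosphorylation. Receptor turnover and the location of these factors are set at the protein level, which mRNA levels do not measure.

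The libraries held between 13358 and 14582 genes at 1 TPM or more. MPO, the myeloid peroxidase, stood at 1528 to 4889 TPM in NB4, against 9128 to 11406 TPM in Kasumi-1. RUNX1T1, a fusion partner gene of Kasumi-1, was at most 0.0476 TPM in NB4, against 58.0 to 92.5 TPM in Kasumi-1. The progenitor markers CD34 and KIT were at most 0.0358 and 0.311 TPM in NB4. In Kasumi-1, CD34 was at 111.8, 18.3, 36.5 and 57.5 TPM (untreated, 6, 12 and 24 h). KIT was at 449.8, 72.5, 115.1 and 191.6 TPM there over the same series. The 9 myeloid markers summed to 7078, 4787, 3245 and 2500.1 TPM in NB4, against 18194, 21148, 15104 and 13669 TPM in Kasumi-1 (untreated, 6, 12 and 24 h), and the part of that course in the values given here was not tested. MPO and PRTN3 held most of these sums, and the single markers differed. MPO, PRTN3, ELANE and AZU1 were lower in untreated NB4 than in untreated Kasumi-1, whereas CTSG (464.3 against 11.6 TPM), CEBPA, PTPRC, SPI1 and CD33 were higher. Within each line SPI1 and PTPRC were higher in all 6 treated libraries, and PRTN3 and CD33 were lower in all 6. Of 13 markers of erythroid, lymphoid, epithelial and fibroblast cells, 5 were at 0 in every library, and their sum ran from 20.5 to 28.8 TPM in NB4, against 18.1 to 30.4 TPM in Kasumi-1, most of it EPCAM. Mitochondrial transcripts took 5.04% to 6.71% of TPM in NB4, against 7.94% to 17.12% in Kasumi-1, the highest at 24 h. With those transcripts and the other most abundant genes left out of the total, the median gene of Kasumi-1 at 24 h shifted by 0.14 on the log2 scale.

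Promoter windows of 300 bases, from 250 before to 50 after a gene's start, were read from RefSeq (GRCh38.p14) and searched on both strands for CACGTG, for the longer lysosomal CLEAR element (CACGTG with GT before and AC after it), and for TGACNNNGC, the core of the element bound by the oxidative stress factor NRF2. Over all 35116 windows, 7.26% held CACGTG, 0.353% held the CLEAR element and 13.3% held TGACNNNGC. The 10 genes had 19 windows, of which 0 held CACGTG and 2 held TGACNNNGC, in MAP1LC3B and CALCOCO2. FNIP1 and RRAGC, partners in the nutrient signalling that controls TFEB and TFE3, are shown because their windows hold CACGTG and their mRNA was higher after treatment; both were chosen with values known. Windows of FLCN and FNIP2, of the same complex, were searched too and held no CACGTG. The mRNA of each was also higher in all 6 treated libraries. SQSTM1 is shown as the gene with the largest response of the 10, by the most downstream of its windows, which held neither motif. Capitals mark the motifs, and sequences run 5′ to 3′ along the gene's strand.
FNIP1, chr5:131796968-131797267, minus strand: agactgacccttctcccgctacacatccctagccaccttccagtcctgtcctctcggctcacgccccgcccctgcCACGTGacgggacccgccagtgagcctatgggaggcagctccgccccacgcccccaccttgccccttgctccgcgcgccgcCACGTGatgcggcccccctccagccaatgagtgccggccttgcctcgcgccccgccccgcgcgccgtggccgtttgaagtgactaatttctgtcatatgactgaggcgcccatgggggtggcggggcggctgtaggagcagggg
RRAGC, chr1:38859723-38860022, minus strand: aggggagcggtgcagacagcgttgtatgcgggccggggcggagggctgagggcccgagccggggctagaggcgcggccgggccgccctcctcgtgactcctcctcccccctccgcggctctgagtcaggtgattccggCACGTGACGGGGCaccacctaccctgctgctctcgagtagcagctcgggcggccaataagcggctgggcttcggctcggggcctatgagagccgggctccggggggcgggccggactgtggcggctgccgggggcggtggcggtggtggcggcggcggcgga
MAP1LC3B, chr16:87392086-87392385, plus strand: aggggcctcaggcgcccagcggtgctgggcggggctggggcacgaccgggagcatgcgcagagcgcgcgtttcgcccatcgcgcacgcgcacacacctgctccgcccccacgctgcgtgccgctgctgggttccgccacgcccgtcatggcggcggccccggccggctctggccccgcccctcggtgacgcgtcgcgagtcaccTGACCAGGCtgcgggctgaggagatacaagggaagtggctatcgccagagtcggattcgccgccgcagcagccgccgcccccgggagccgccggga
SQSTM1, chr5:179820655-179820954, plus strand: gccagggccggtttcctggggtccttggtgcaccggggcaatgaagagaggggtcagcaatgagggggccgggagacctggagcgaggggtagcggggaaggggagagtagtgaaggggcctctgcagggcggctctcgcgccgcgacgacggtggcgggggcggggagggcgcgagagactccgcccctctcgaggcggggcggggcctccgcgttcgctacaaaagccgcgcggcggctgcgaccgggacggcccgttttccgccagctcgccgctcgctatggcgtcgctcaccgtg
The CACGTG of FNIP1 starts 175 and 94 bases before the annotated start, and that of RRAGC 112 bases before it, where TGACNNNGC overlaps it from base 108. In MAP1LC3B, TGACNNNGC starts 46 bases before the start. A match is a description of letters, and its absence says only that these letters are not in this window.

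SQSTM1 and TFE3 were higher in all 6 treated libraries, SQSTM1 by 2.71 to 7.42 times and TFE3 by 1.94 to 2.29 times in TPM. OPTN, MAP1LC3B, GABARAPL1 and TFEB were also higher in all 6, by smaller or less even amounts, whereas NBR1, CALCOCO2, TAX1BP1 and MITF moved little or in opposite directions in NB4 and Kasumi-1. Thus 6 of the 10 genes were higher at every treated time in both lines, where 12.9% of all genes tested were, and 0 were lower throughout, where 16.9% were. The 10 were chosen with earlier results of these data known, so these shares describe them and do not test them as a set. Among these 6, the values of OPTN in NB4 rest on few reads, and those of TFEB in both lines are low and may do so.

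**Figure D1:**
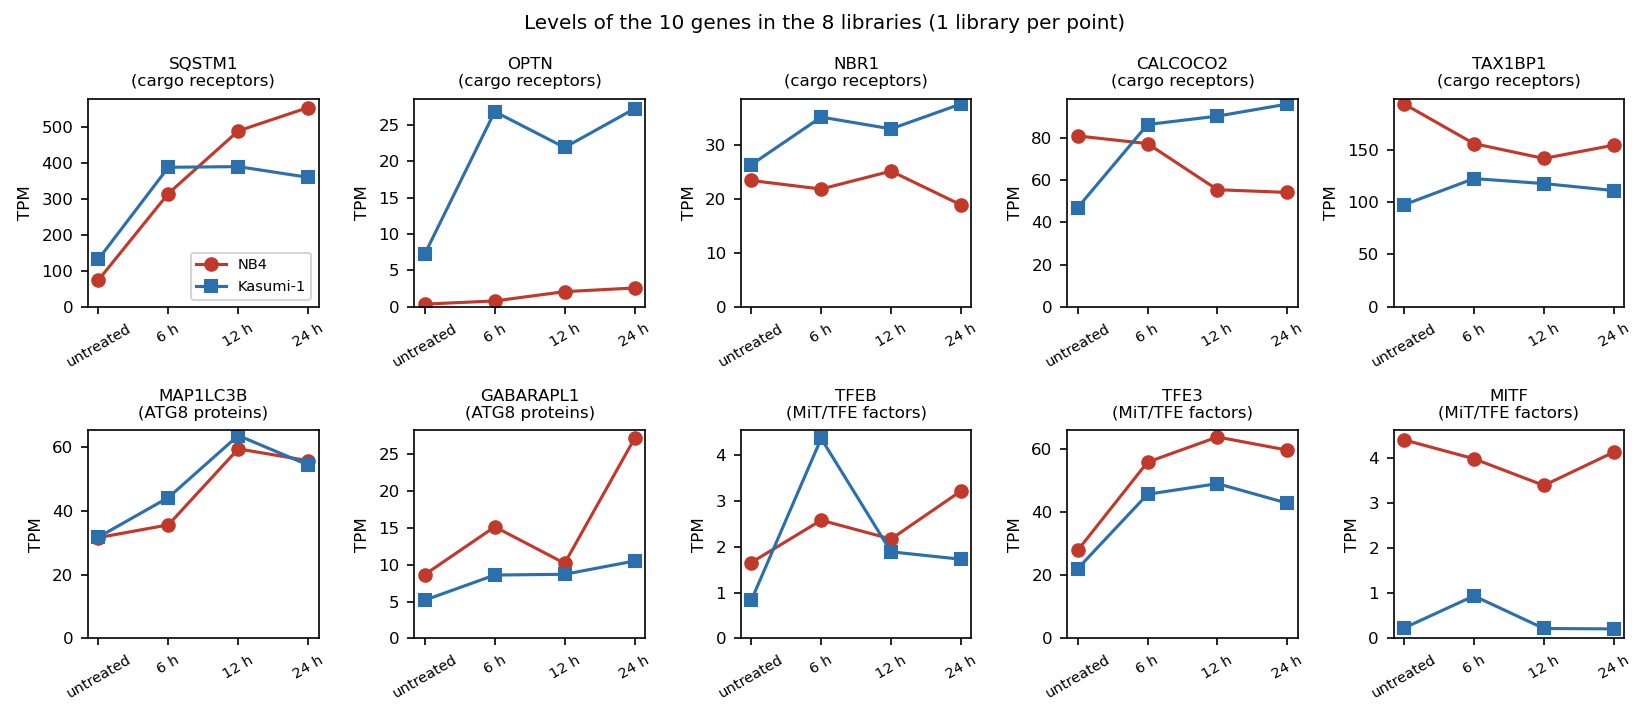
Level of each of the 10 genes in TPM (vertical axes, from 0, with a scale of their own) in NB4 (red circles) and Kasumi-1 (blue squares), untreated and after 6, 12 and 24 h; each point is 1 library. SQSTM1 reached 554.9 TPM in NB4 at 24 h and 360.5 TPM in Kasumi-1, and the OPTN lines stay far apart throughout.

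SQSTM1 (p62; ENSG00000161011.15, hg19 chr5:179233388-179265078, plus strand) encodes a receptor that gathers ubiquitinated proteins and also binds KEAP1, the inhibitor of NRF2. In NB4 it stood at 74.8 TPM untreated and at 315.5, 489.8 and 554.9 TPM after 6, 12 and 24 h. In Kasumi-1 it stood at 132.8 TPM untreated and at 388.5, 390.4 and 360.5 TPM after 6, 12 and 24 h. Every treated library lay above both untreated ones, and the lines differed in course: each later NB4 library was higher than the one before it, whereas the Kasumi-1 libraries stayed between 360.5 and 390.4 TPM from 6 h on. The TPM ratios over untreated were 4.22, 6.55 and 7.42 in NB4, against 2.93, 2.94 and 2.71 in Kasumi-1. TPM is a share of a library's RNA, so more SQSTM1 RNA per cell, less of other RNA and a changed mix of cells cannot be told apart here. SQSTM1 overlaps on the opposite strand C5orf45 (3643 bases) and MGAT4B (565 bases). C5orf45 was at 14.1, 22.9, 31.8 and 34.5 TPM in NB4, against 35.5, 42.1, 38.7 and 71.0 TPM in Kasumi-1 (untreated, 6, 12 and 24 h). MGAT4B was at 92.4, 100.6, 129.3 and 173.7 TPM in NB4, against 82.5, 132.2, 136.8 and 134.8 TPM in Kasumi-1. Both were thus, like SQSTM1, higher than untreated in every treated library. The sources used here do not say whether counting used strand, so reads of the overlapping bases cannot be assigned with certainty.

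OPTN (optineurin; ENSG00000123240.12, hg19 chr10:13141449-13180291, plus strand), a receptor for damaged mitochondria and bacteria that the kinase TBK1 phosphorylates, was at 0.371 TPM in untreated NB4 and at 0.810, 2.08 and 2.59 TPM after 6, 12 and 24 h. In Kasumi-1 it was at 7.28 TPM untreated and at 26.8, 21.9 and 27.2 TPM after 6, 12 and 24 h. The highest NB4 library lay below the lowest Kasumi-1 library, and within each line every treated library lay above the untreated one. The Kasumi-1 ratios over untreated were 3.68, 3.004 and 3.74. In NB4 the deposited read coverage of OPTN was 0.160, 0.450, 0.684 and 1.41 (untreated, 6, 12 and 24 h), against 5.78, 23.1, 20.1 and 19.1 in Kasumi-1, so a ratio over the untreated NB4 library rests on few reads and is not given.

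The other 3 receptors showed no common direction. NBR1 (ENSG00000188554.9, hg19 chr17:41322498-41363708, plus strand), which works with SQSTM1 on ubiquitinated proteins and peroxisomes, was at 23.4, 21.8, 25.2 and 18.9 TPM in NB4, against 26.4, 35.2, 33.0 and 37.6 TPM in Kasumi-1 (untreated, 6, 12 and 24 h). Its NB4 values lay on both sides of the untreated library, and its treated Kasumi-1 values all lay above theirs. CALCOCO2 (NDP52; ENSG00000136436.10, hg19 chr17:46908350-46943884, plus strand), a receptor for bacteria and mitochondria, was at 81.0, 77.4, 55.5 and 54.2 TPM in NB4, against 47.0, 86.4, 90.4 and 96.1 TPM in Kasumi-1 over the same series. The order of the lines was thus reversed: untreated NB4 was above untreated Kasumi-1, and every treated NB4 library was below every treated Kasumi-1 library. TAX1BP1 (ENSG00000106052.9, hg19 chr7:27778950-27884183, plus strand), a receptor that also binds the inflammation regulator TNFAIP3, was at 193.7, 155.8, 141.6 and 154.3 TPM in NB4, against 97.4, 122.4, 117.7 and 111.0 TPM in Kasumi-1. Its treated libraries lay below the untreated one in NB4 and above it in Kasumi-1, and NB4 was higher than Kasumi-1 at every time. It overlaps JAZF1 on the opposite strand over 13992 bases, and JAZF1 was at 13.4 to 16.6 TPM in NB4, against 0.0723 to 0.205 TPM in Kasumi-1. CALCOCO2 and TAX1BP1 were thus lower at all 3 times in NB4 and higher at all 3 in Kasumi-1, a pattern that 4.92% of all genes tested had.

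As a result of these unequal values, the make-up of receptor mRNA differed between treated and untreated cells. The 5 receptors summed to 373.3, 571.3, 714.2 and 785.0 TPM in NB4, against 310.9, 659.3, 653.3 and 632.5 TPM in Kasumi-1 (untreated, 6, 12 and 24 h). SQSTM1 made up 20.0%, 55.2%, 68.6% and 70.7% of that sum in NB4, against 42.7%, 58.9%, 59.8% and 57.0% in Kasumi-1. TAX1BP1, the most abundant receptor of untreated NB4, made up 51.9%, 27.3%, 19.8% and 19.7% in NB4, against 31.3%, 18.6%, 18.0% and 17.6% in Kasumi-1. SQSTM1 was the most abundant receptor in every library but untreated NB4. By deposited coverage in place of TPM the SQSTM1 share was 23.6%, 58.8%, 70.8% and 75.7% in NB4, against 43.4%, 58.0%, 58.8% and 56.7% in Kasumi-1.

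**Figure D2:**
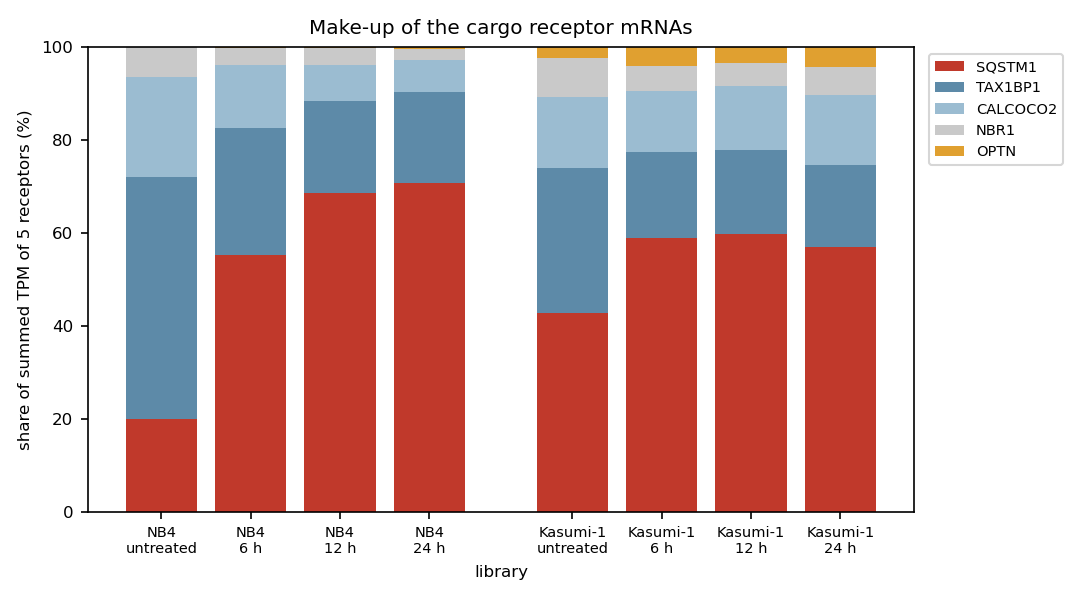
Share of each of the 5 cargo receptors in their summed TPM (vertical axis, percent, from 0 to 100) in the 8 libraries, 1 stacked bar per library. SQSTM1 (red) takes 70.7% of the bar in NB4 at 24 h and 20.0% in untreated NB4, and 57.0% in Kasumi-1 at 24 h and 42.7% in untreated Kasumi-1.

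MAP1LC3B (ENSG00000140941.8, hg19 chr16:87417601-87438385, plus strand), the ATG8 protein most used as a marker of autophagosomes, was at 31.6, 35.7, 59.5 and 55.8 TPM in NB4, against 31.8, 44.2, 63.7 and 54.5 TPM in Kasumi-1 (untreated, 6, 12 and 24 h). Both lines started at nearly the same level and peaked at 12 h. GABARAPL1 (ENSG00000139112.6, hg19 chr12:10365057-10375727, plus strand), of the GABARAP branch of the family, was at 8.68, 15.2, 10.2 and 27.2 TPM in NB4, against 5.20, 8.60, 8.71 and 10.5 TPM in Kasumi-1. Its 24 h NB4 library stood apart from the other NB4 libraries, and the ranges of the lines overlapped. The reads of MAP1LC3B may be shared with its near-identical copy MAP1LC3B2, which was at 2.93, 3.05, 5.20 and 4.39 TPM in NB4, against 2.11, 0.669, 4.70 and 4.44 TPM in Kasumi-1. MAP1LC3B also overlaps FBXO31 on the opposite strand over 8148 bases.

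Both were set against the summed TPM of 6 ATG8 genes; the family member MAP1LC3C was listed at 0 in all 8 libraries. MAP1LC3B took 15.3%, 14.9%, 22.3% and 18.7% of the family's TPM in NB4, against 10.7%, 15.1%, 19.7% and 20.3% in Kasumi-1 (untreated, 6, 12 and 24 h). GABARAPL2 and GABARAP, which are not among the 10, took most of the rest: GABARAPL2 46.1% to 55.4% in NB4, against 37.5% to 42.6% in Kasumi-1, and GABARAP 21.0% to 25.2% in NB4, against 35.4% to 49.2% in Kasumi-1. The family sum was 206.6, 239.9, 266.6 and 298.0 TPM in NB4, against 297.6, 292.2, 323.6 and 268.9 TPM in Kasumi-1. It was thus higher at each later NB4 time, with no such course in Kasumi-1.

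TFE3 (ENSG00000068323.12, hg19 chrX:48886242-48901012, minus strand) was the most abundant MiT/TFE factor in every library. It was at 27.8, 55.7, 63.7 and 59.5 TPM in NB4, against 22.02, 45.6, 48.9 and 42.7 TPM in Kasumi-1 (untreated, 6, 12 and 24 h). All 6 treated values lay above both untreated ones, and the course was nearly the same in the lines, with ratios over untreated of 2.004, 2.29 and 2.14 in NB4, against 2.07, 2.22 and 1.94 in Kasumi-1. TFEB (ENSG00000112561.13, hg19 chr6:41651716-41703997, minus strand), the best-studied regulator of lysosome genes, was at 1.66, 2.58, 2.17 and 3.22 TPM in NB4, against 0.829, 4.37, 1.89 and 1.73 TPM in Kasumi-1. Its highest value was in Kasumi-1 at 6 h, and TFE3 was far above it in every library. The deposited read coverage of TFEB was 0.415 to 0.728 in NB4, against 0.189 to 1.15 in Kasumi-1. Coverage per FPKM differed between genes, at 0.460 to 0.655 for TFEB and 4.58 to 6.47 for TFE3. With the coverage per FPKM most common in each library, the depth of TFEB would be 6.37 to 10.7 in NB4, against 2.82 to 17.6 in Kasumi-1. Its TPM was low in every library, so its changes may rest on few reads. MITF (ENSG00000187098.10, hg19 chr3:69788586-70017488, plus strand), best known for directing melanocyte development, was at 4.40, 3.98, 3.39 and 4.13 TPM in NB4, against 0.229, 0.940, 0.218 and 0.209 TPM in Kasumi-1. Every NB4 library lay above every Kasumi-1 library. The deposited read coverage of MITF was also low, at 0.233 to 0.407 in NB4, against 0.0230 to 0.111 in Kasumi-1. The 5 melanocyte markers TYR, PMEL, MLANA, DCT and TYRP1 summed to 0.877 to 1.88 TPM in NB4, against 0.858 to 1.32 TPM in Kasumi-1, with TYR and TYRP1 at 0 in all 8 libraries. Together with TFEC the family summed to 33.9, 62.4, 69.4 and 67.0 TPM in NB4, against 23.1, 50.9, 51.0 and 44.7 TPM in Kasumi-1, of which TFE3 made up 82.0% to 91.8% in NB4, against 89.6% to 95.9% in Kasumi-1.

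**Figure D3:**
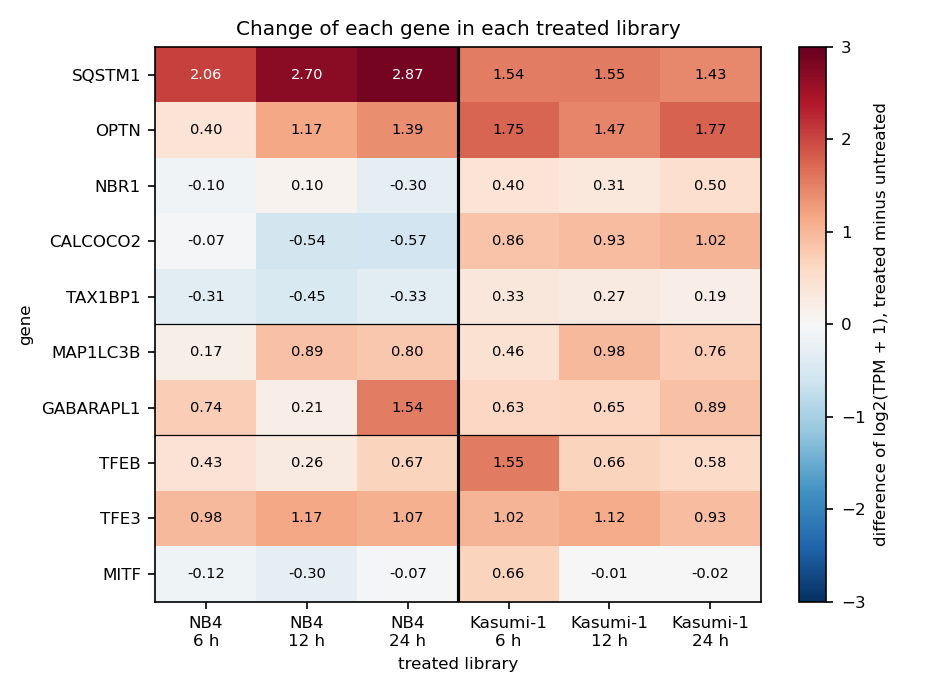
Difference of log2(TPM + 1) between each treated library and the untreated library of its line, for the 10 genes (down the page, grouped as receptors, ATG8 proteins and MiT/TFE factors) and the 6 treated libraries (across); red is higher and blue lower after treatment. SQSTM1 ranges from 1.43 to 2.87, and CALCOCO2 from -0.57 in NB4 to 1.02 in Kasumi-1.

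Which genes responded in both lines was tested with limma on log2(TPM + 1), as the average over 6, 12 and 24 h less the untreated value, with a term for the line; fold changes on this scale are understated for low genes. With 1 library per condition, the p-values measure how alike the lines moved, not the spread of cultures. At a Benjamini-Hochberg adjusted p under 0.05, 0 of the 10 genes were called higher (0.0273% of all genes tested were) and 0 lower (0.0% of all genes). At an unadjusted limma p under 0.05, 6 of the 10 were higher, against 9.3% of all genes tested, and 0 were lower, against 11.1%. The 6 are SQSTM1, OPTN, MAP1LC3B, GABARAPL1, TFEB and TFE3. The median of the 10 was 0.68 and that of all genes tested was -0.03. Because the 10 were chosen with earlier results known, the shares and medians of all genes stand beside them as description only.

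By size, SQSTM1 ranked 54 of 14650 genes from the highest, with a shared log2 difference of 2.03 (SE 0.27, limma Benjamini-Hochberg adjusted p = 0.0638). TFE3 had the smallest standard error of the 10, with 1.05 (SE 0.12, limma adjusted p = 0.0607). Both passed when each line's times served as repeats (limma adjusted p = 0.0224 for SQSTM1 and 0.0223 for TFE3) and when mitochondrial and other top genes were left out of the TPM total (limma adjusted p = 0.0489 for each). The times of a line share 1 untreated library and are not replicates, so p-values with times as repeats can be too small. Without the untreated Kasumi-1 library the SQSTM1 difference was 2.54, which is that of NB4 alone and no longer a shared one. With a mean of at least 5 TPM required, TFE3 alone passed (limma adjusted p = 0.0472). OPTN had 1.32 (SE 0.28, limma adjusted p = 0.1005), and MAP1LC3B 0.68 (SE 0.13, limma adjusted p = 0.0881). The remaining adjusted p-values ran from 0.147 for GABARAPL1 to 0.969 for MITF.

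Taken 1 time at a time, 0 of the 10 were called at 6, 12 or 24 h, nor was any gene (0.0% each). At an unadjusted limma p under 0.05, 5 were higher at 6 h (6.27% of all genes), 4 at 12 h (7.08%) and 5 at 24 h (8.35%), and 0 were lower at any of these times (6.0%, 8.29% and 10.3% of all genes at 6, 12 and 24 h). SQSTM1, OPTN and TFE3 were among them at all 3 times. MAP1LC3B was among them at 12 and 24 h, GABARAPL1 at 6 and 24 h, and TFEB at 6 h.

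**Figure D4:**
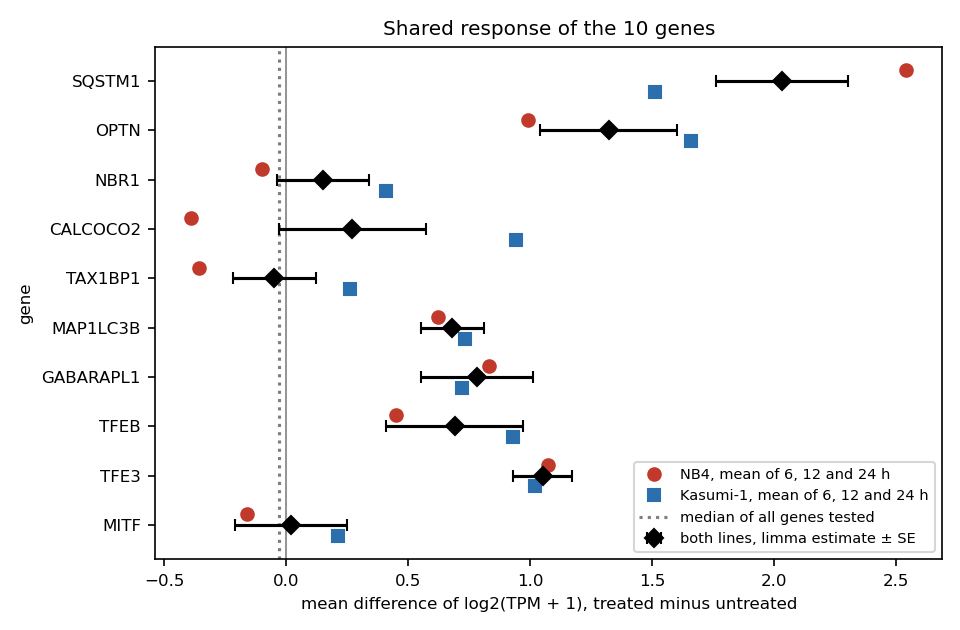
Mean difference of log2(TPM + 1), treated minus untreated, over 6, 12 and 24 h (horizontal axis) for the 10 genes in NB4 (red circles) and Kasumi-1 (blue squares), with the limma estimate over both lines (black diamonds, bars are 1 SE). TFE3 lies at 1.05 with the points of both lines close to it, SQSTM1 lies at 2.03 with its points farther apart, and the dotted line marks the median of all genes tested at -0.03.

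Within a line, genes at least 2-fold higher on the log2(TPM + 1) scale were counted without a test. In NB4, SQSTM1 alone of the 10 was 2-fold higher at 6 h (3.06% of all genes tested were), SQSTM1, OPTN and TFE3 at 12 h (5.6%), and those 3 and GABARAPL1 at 24 h (6.51%). In Kasumi-1, SQSTM1, OPTN, TFEB and TFE3 were 2-fold higher at 6 h (6.44%), SQSTM1, OPTN and TFE3 at 12 h (4.85%), and SQSTM1, OPTN and CALCOCO2 at 24 h (5.11%). At all 3 times this held for SQSTM1 in NB4 (2.03% of all genes) and for SQSTM1 and OPTN in Kasumi-1 (1.88%). None of the 10 was 2-fold lower in any treated library, where 2.27%, 2.37% and 2.88% of all genes were at 6, 12 and 24 h in NB4, against 2.99%, 3.52% and 3.88% were in Kasumi-1 (0.703% and 0.655% at all 3 times). The 3 treated libraries of a line share 1 untreated library, so these counts are not independent. The places of OPTN in the NB4 counts rest on few reads, and that of TFEB in the Kasumi-1 count at 6 h may do so.

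The same limma model gave the difference between the lines over all 4 conditions, treated times included. Of the 10 genes, 4 were higher in NB4 than in Kasumi-1 at an adjusted p under 0.05 (27.5% of all genes tested were) and 2 were lower (27.8%). OPTN had the largest of these differences, with NB4 minus Kasumi-1 at -3.10 on the log2 scale (SE 0.24, limma Benjamini-Hochberg adjusted p = 7.1e-05). MITF was higher in NB4 by 1.86 (SE 0.20, limma adjusted p = 3.1e-04), and both calls held without each library in turn. By scaled coverage the MITF difference was 0.22 (limma adjusted p = 0.0317), and its deposited coverage per FPKM was 0.166 to 0.223 in NB4, against 0.250 to 0.350 in Kasumi-1. TAX1BP1 was higher in NB4 by 0.52 (SE 0.14, limma adjusted p = 0.0199), a call that ended without either 24 h library (0.0506 without NB4 and 0.0512 without Kasumi-1). GABARAPL1 (0.72, SE 0.20, limma adjusted p = 0.0195), TFE3 (0.36, SE 0.11, limma adjusted p = 0.0260) and NBR1 (-0.54, SE 0.16, limma adjusted p = 0.0257) each lost the call without some of the treated libraries, TFE3 and NBR1 without any of the 6. TFE3 also lost it with mitochondrial and top genes left out of TPM (0.27, limma adjusted p = 0.0748). By scaled coverage GABARAPL1 (0.59, limma adjusted p = 0.0657) and NBR1 (-0.45, limma adjusted p = 0.0532) lost it, and NBR1 did with no filter (limma adjusted p = 0.0526). SQSTM1, with -0.04 (SE 0.23, limma adjusted p = 0.888), showed no difference beyond its error on average over the 4 conditions. This average joins opposite differences: NB4 was below Kasumi-1 untreated and at 6 h, and above it at 12 and 24 h.

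Whether the response itself differed between the lines was tested as NB4 response minus Kasumi-1 response, taking each line's 3 times as repeats, which are not replicates. Of the 10 genes, 0 were called higher (0.0887% of all genes tested) and 0 lower (0.041%). At an unadjusted limma p under 0.05, SQSTM1 was higher (6.37% of all genes) and CALCOCO2 and TAX1BP1 were lower (4.22%). The SQSTM1 response was 1.04 larger in NB4 (SE 0.41, limma Benjamini-Hochberg adjusted p = 0.432), and the TFE3 responses differed by 0.05 (SE 0.24, limma adjusted p = 0.962). For CALCOCO2 the mean log2 difference was -0.39 in NB4, against 0.94 in Kasumi-1, a gap of -1.33 (SE 0.31, limma adjusted p = 0.263).

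The wider machinery around these genes was described by lists of known parts, with no gene of these lists called in the shared response at an adjusted limma p under 0.05 (alternatives that change this are given with the gene). Among 23 genes of mTORC1 and TFEB signalling, 5 were higher at an unadjusted p under 0.05 (RRAGA, RRAGC, FLCN, FNIP1 and LAMTOR3) and 2 lower (RRAGB and LAMTOR2), where 9.3% of all genes tested were higher and 11.1% lower, with a median of 0.15 over the list against -0.03 over all genes tested. FNIP1, which with FLCN forms a complex that acts on RRAGC so that mTORC1 can phosphorylate TFEB and TFE3, was at 9.20, 18.7, 22.4 and 19.4 TPM in NB4, against 17.1, 37.0, 42.6 and 44.2 TPM in Kasumi-1 (untreated, 6, 12 and 24 h). Its shared log2 difference was 1.13 (SE 0.14, limma Benjamini-Hochberg adjusted p = 0.0607), close in size and error to that of TFE3. RRAGC, a GTPase that recruits mTORC1 to the lysosome, was at 16.2, 25.9, 32.7 and 28.1 TPM in NB4, against 21.6, 43.3, 51.3 and 49.5 TPM in Kasumi-1, with a difference of 0.95 (SE 0.14, limma adjusted p = 0.0748). FLCN was at 16.5, 22.2, 33.3 and 32.8 TPM in NB4, against 13.0, 25.3, 28.6 and 33.3 TPM in Kasumi-1, with a difference of 0.94 (SE 0.16, limma adjusted p = 0.0799). FNIP1 passed with a mean of at least 5 TPM required (limma adjusted p = 0.0472) and, as did RRAGC, with each line's times as repeats, which are not replicates (limma adjusted p = 0.0224 for FNIP1 and 0.0398 for RRAGC). For FNIP1, RRAGC and FLCN, as for TFE3, every treated library lay above the untreated library of its line.

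**Figure D5:**
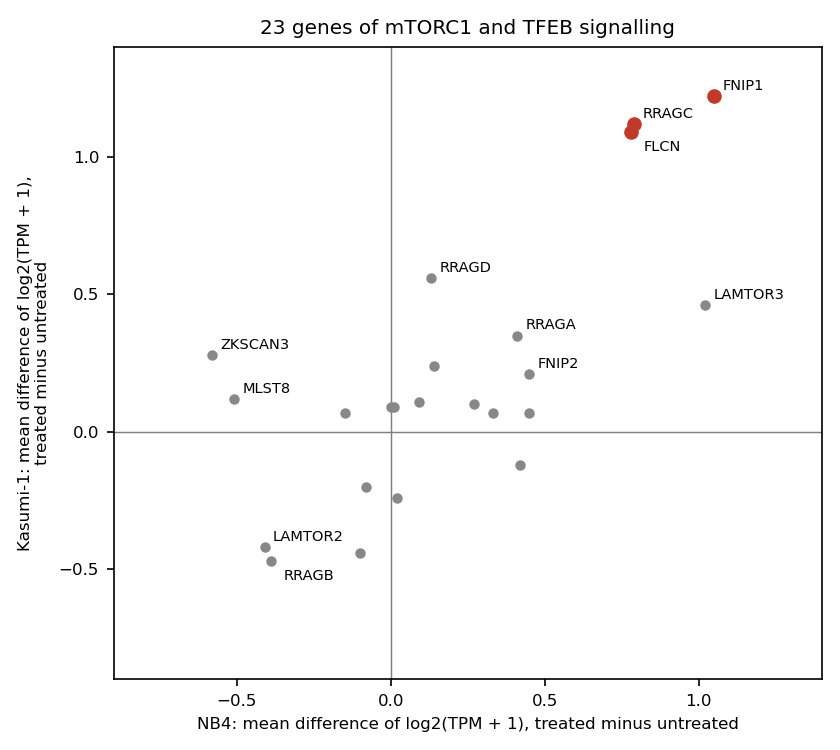
Mean difference of log2(TPM + 1) over 6, 12 and 24 h, treated minus untreated, in NB4 (horizontal axis) and Kasumi-1 (vertical axis) for the 23 genes of mTORC1 and TFEB signalling; each point is a gene, and red marks the 3 with the largest shared difference. FNIP1 lies at 1.05 in NB4, against 1.22 in Kasumi-1, RRAGC at 0.79 and 1.12, and FLCN at 0.78 and 1.09.

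Genes that MiT/TFE factors are known to activate had a median shared log2 difference of 0.29. Of 28 lysosomal targets 25 were tested, 6 were higher at an unadjusted limma p under 0.05 (CTSA, GLA, HEXA, PSAP, TPP1 and TMEM55B; 9.3% of all genes tested were) and 2 lower (CTSB and NAGLU; 11.1%). Their median difference at 6, 12 and 24 h was 0.00, 0.37 and 0.53 in NB4, against -0.00, 0.13 and 0.30 in Kasumi-1. PSAP, the precursor of lysosomal lipid-degrading cofactors, had a shared difference of 0.60 (SE 0.19, limma Benjamini-Hochberg adjusted p = 0.154), and TPP1, a lysosomal peptidase, 0.58 (SE 0.15, limma adjusted p = 0.119). CTSB, the protease cathepsin B, had -0.56 (SE 0.22, limma adjusted p = 0.213).

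Lists of genes that build autophagosomes were counted at the same unadjusted threshold, which 9.3% of all genes tested passed as higher and 11.1% as lower. In ATG8 conjugation 3 of 11 were higher (ATG4B, ATG4D and ATG16L1) and 1 lower (ATG3), with a median of 0.29. In initiation and nucleation 4 of 24 were higher (WIPI1, KIAA0226, VMP1 and TMEM41B) and 0 lower, with a median of 0.08. TMEM41B, a lipid scramblase needed for autophagosome growth, led that list with 0.83 (SE 0.16, limma Benjamini-Hochberg adjusted p = 0.0869, and 0.0440 with each line's times as repeats, which are not replicates). It stood at 11.6, 21.3, 20.4 and 19.6 TPM in NB4, against 10.4, 19.2, 18.5 and 23.1 TPM in Kasumi-1, so that every treated library was above both untreated ones. In fusion with the lysosome 2 of 14 were higher (YKT6 and PLEKHM1) and 2 lower (STX17 and VPS33A), with a median of -0.01. A list of receptors for organelles and other cargo, which also held regulators such as PINK1, TBK1, KEAP1 and NFE2L2, had 18 genes tested. Of these 2 were higher (the receptor CALCOCO1 and the NRF2 inhibitor KEAP1) and 3 lower (BNIP3, PHB2 and NCOA4), with a median of -0.04. NCOA4, the receptor for the iron store ferritin, was at 228.7, 160.1, 153.8 and 70.6 TPM in NB4, against 291.0, 124.7, 144.4 and 153.0 TPM in Kasumi-1. All its treated libraries lay below both untreated ones, with a shared difference of -0.98 (SE 0.27, limma adjusted p = 0.129). Of the other ATG8 genes and TFEC, 3 of 6 were tested and 0 were past the threshold.

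Likeness to SQSTM1 was measured as the root mean square difference of log2(TPM + 1) over the 8 libraries after the mean of each line was subtracted, among the 10949 genes averaging at least 5 TPM. The 5 nearest were SC5D (0.13), an enzyme of cholesterol synthesis, NPPA-AS1 (0.22), F3 (0.26), the coagulation starter tissue factor, BMF (0.26), a BCL2 family member, and MVD (0.27), another enzyme of cholesterol synthesis. SC5D was at 12.8, 64.6, 79.1 and 104.1 TPM in NB4, against 13.5, 33.1, 36.5 and 39.7 TPM in Kasumi-1 (untreated, 6, 12 and 24 h). As for SQSTM1, each later NB4 library was higher than the one before, and the 24 h value in NB4 exceeded that in Kasumi-1. SC5D was also higher at each later time in Kasumi-1, whereas SQSTM1 was at 388.5, 390.4 and 360.5 TPM there after 6, 12 and 24 h. The nearest genes were picked on these same values, so their likeness to SQSTM1 is no separate result. None of the 10 genes other than SQSTM1 itself was among these nearest genes.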

How the data were processed

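The 8 libraries are total RNA of NB4 and Kasumi-1 cells, made with an Illumina TruSeq kit per the labels' protocols, and were grouped by the line and time in their titles. HISAT2, StringTie and the build hg19 are named in the submitters' processing notes. Their versions, options, strand use and annotation were not given in the sources used here. The authors' deposited columns hold, per the file headers, TPM (scaled so that each library has the same sum), FPKM (scaled for length and depth) and read coverage. The values are not counts, and the number of reads is not given.

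Each table lists 57820 gene IDs; values of the 306 symbols with more than 1 row were summed. Tests used limma 3.58.1 in R 4.3.3 (eBayes with trend, two-sided) on log2(TPM + 1) for the 14650 genes averaging at least 1 TPM, with Benjamini-Hochberg adjustment over all of them and a threshold of 0.05. The shared response and the line difference came from line plus time (3 residual degrees of freedom), the response difference from line by treatment (4 residual degrees of freedom). The fit was tested on simulated data. Named genes were the 10, up to 3 per list with the largest absolute shared difference, and the 5 nearest to SQSTM1; members, lists and promoters shown were chosen with earlier results of these data known. Alternatives changed the pseudocount, filter, unit, scaling, model and libraries. Python 3.11.15, pandas 2.3.3, numpy 2.4.6 and matplotlib 3.10.9 read tables and drew plots. No libraries were identical. Low values rest on few reads, and a 0 can be a failed estimate.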

Additional observations from a re-analysis of the deposited data

Results flagged for a closer look

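CALCOCO2 moved in opposite directions in the 2 lines: its mean log2 difference, treated minus untreated, was -0.39 in NB4 and 0.94 in Kasumi-1, with every treated library of a line on the same side of its untreated library. The gap between the lines was -1.33 (SE 0.31), and the limma test of that gap did not pass (Benjamini-Hochberg adjusted p = 0.263). TAX1BP1 also did so, with -0.36 in NB4 and 0.26 in Kasumi-1, a gap of -0.62 (SE 0.21, limma adjusted p = 0.382). GABARAP, an ATG8 gene outside the 10, did the reverse, with 0.36 in NB4 and -0.43 in Kasumi-1, a gap of 0.79 (SE 0.29, limma adjusted p = 0.413). Each line has 1 untreated library, which all 3 of its differences share.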

How the results depend on the processing

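Of 963 values recomputed under alternatives, 885 kept their direction and their side of the threshold or, for counts, stayed within 1.5 times. No paired analysis was possible beyond the term for the cell line because each condition is 1 library and the labels give no replicate numbers. The shared response counted 0 of the 10 genes higher, against 1 with a mean of at least 5 TPM, 2 with mitochondrial and top genes left out of TPM, 2 with times as repeats, and 0 to 1 without each library in turn. The line difference counted 4 higher, with 1 to 4 without each library in turn (2 without either 6 h library and 1 without either 24 h library). It counted 2 lower, against 1 with no filter, 1 by scaled coverage (chosen after seeing the data) and 1 to 3 without each library (1 without any treated one, 3 without either untreated one, where CALCOCO2 joined). The count 2-fold higher at all 3 times was 1 in NB4, against 2 with a pseudocount of 0.1, 2 at 1.5-fold and 1 to 3 without each treated library (3 without 6 h), and 2 in Kasumi-1, against 5 at 1.5-fold.

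Among genes not called, the shared difference turned sign without untreated Kasumi-1 for NBR1 (-0.10, and at most 0.41 over the left-out libraries), CALCOCO2 (-0.39 to 0.94), MITF (-0.16 to 0.21), GABARAP (0.36, lowest -0.43) and PINK1 (-0.03 to 1.44). It also turned for TAX1BP1 (0.15 by scaled coverage, 0.26 without untreated NB4, 0.01 without NB4 at 12 h, lowest -0.36) and for MITF (-0.01 by FPKM and by scaled coverage, -0.03 without NB4 at 24 h, -0.09 without Kasumi-1 at 6 h). The same held for GABARAP without Kasumi-1 at 24 h (0.10) and ATG7 without untreated NB4 (-0.00, highest 0.92). The SQSTM1 line difference turned to 0.05 by scaled coverage, 0.22 without either untreated library and 0.04 without either 6 h library (lowest -0.26). The response difference turned for OPTN (0.12, pseudocount 0.1), MAP1LC3B (0.11 without NB4 at 6 h, 0.01 without Kasumi-1 at 12 h), GABARAPL1 (-0.25 without NB4 at 24 h, highest 0.42) and TFE3 (-0.02, mitochondrial and top genes left out). Without the untreated library of a line, the shared difference is the mean difference of the other line alone, so those turns give the direction of that line. The causes of the other turns were not tested. The SQSTM1 shared difference ranged from 1.51 to 2.54 and that of TFE3 from 1.0 to 1.08, with limma adjusted p of 0.0224 to 0.9998 and 0.0223 to 0.9998, the highest with no line term. Response differences could not be fitted without an untreated library, and TFEB and MITF were not tested at 5 TPM.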

Other observations

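CCPG1, a receptor for the endoplasmic reticulum that was chosen here after its values were seen, was at 94.2, 33.3, 43.7 and 36.9 TPM in NB4 and at 4.59, 52.3, 17.2 and 42.3 TPM in Kasumi-1 (untreated, 6, 12 and 24 h). Every treated library was lower than untreated in NB4 and higher in Kasumi-1, a gap in response of -3.93 (SE 0.74, limma Benjamini-Hochberg adjusted p = 0.149). WIPI1, which binds the phosphoinositide of early autophagosomes, was at 5.44, 5.69, 7.18 and 8.12 TPM in NB4 and at 38.2, 61.1, 79.3 and 105.7 TPM in Kasumi-1, higher at each later time in both lines (shared difference 0.67, SE 0.20, limma adjusted p = 0.152).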
